A study of Mus musculus with 30 samples.

Results

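The genes described here are the matrix metalloproteases (Mmp), the ADAMTS proteases and ADAMTS-like proteins (Adamts, Adamtsl) and the tissue inhibitors of metalloproteases (Timp) of the mouse. They were chosen by name: 51 of the 41549 genes in the expression table carry one of these names, and the 35 with a mean value of at least 0.5 in at least 1 of 3 tissues were kept. These 35 genes were 14 matrix metalloproteases, 12 ADAMTS proteases, 5 ADAMTS-like proteins and 4 TIMPs. The lowest of the genes kept was Mmp13, with a highest tissue mean of 0.56, and the next was Mmp17 at 1.29. Just under the minimum were Adamts20 at 0.49, Mmp7 at 0.45 and Adamts8 at 0.44. RNA was sequenced from inguinal white adipose tissue (iWAT, subcutaneous fat), brown adipose tissue from between the shoulder blades (iBAT) and the liver of 5 LFABP-/- mice, which lack the liver fatty acid-binding protein (gene Fabp1) in the whole body, and 5 wild-type (WT) mice. There were thus 6 groups of 5 libraries, and the same 10 mice gave all 3 tissues. All mice were C57Bl/6J males, 2 months old at the start, that were fed a diet with 45% of its energy as fat for 12 weeks and were without food for 4 h before tissues were taken. No low-fat group entered these comparisons, so each difference between LFABP-/- and WT mice is one on the high-fat diet.

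Matrix metalloproteases are zinc-dependent endopeptidases that are made as inactive proenzymes and, once activated, cut collagens, gelatin, elastin and other proteins of the extracellular matrix. ADAMTS proteases are secreted, carry thrombospondin repeats and process procollagens and large proteoglycans, while ADAMTS-like proteins share these repeats but have no protease domain. TIMPs bind the active site of metalloproteases and block it, and in fat these enzymes and inhibitors take part in the remodelling of the matrix around adipocytes and vessels as the depot expands.

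Values are on the scale of TPM, transcript abundance normalised for gene length and library total. Each value is thus a share of its library's total. Comparisons between libraries, above all between tissues, depend on what else makes up that total. The read depth behind them is unknown. Fabp1 was at 0.2 to 51.8 in LFABP-/- livers and at 9165.5 to 12697.6 in WT livers, so the labels and the targeted gene went together in liver. In fat, where WT levels are low, they did not always. The iWAT library labelled LFABP-/- replicate 1 had Fabp1 at 196.1, against 0.2 to 0.9 in the other LFABP-/- and 1.9 to 23.9 in the WT iWAT libraries, and its mean log2 level of hepatocyte markers was 6.73, against 1.39 to 4.54 in the other 9. In iBAT, Fabp1 was at 0.4 to 21.2 in LFABP-/- and 0.2 to 8.7 in WT libraries. Summed adipocyte markers were at 18669 to 31437 in LFABP-/- iWAT and 23638 to 54407 in WT iWAT, summed brown adipocyte markers at 14320 to 17459 in LFABP-/- iBAT and 13175 to 15839 in WT iBAT, and summed hepatocyte markers at 104648 to 126833 in LFABP-/- livers and 129092 to 153439 in WT livers. By mean log2 level, the 6 brown adipocyte markers did not overlap in iBAT, at 10.19 to 10.57 in LFABP-/- and 9.07 to 9.72 in WT libraries. Of these 6, Dio2, Elovl3 and Ucp1 were higher in LFABP-/- iBAT and Cox8b was lower. Mitochondrially encoded genes took 53.27% to 60.12% of the values in iBAT, 13.25% to 20.59% in iWAT and 12.12% to 18.09% in liver. In liver this share did not overlap between the genotypes, at 16.94% to 18.09% in LFABP-/- and 12.12% to 15.1% in WT libraries. In iWAT, LFABP-/- replicates 2, 3 and 4 and WT replicates 3 and 4 had a mean log2 level of 14 lymphocyte markers of 5.43 to 7.29, and the other 5 had 0.92 to 1.60; the same 5 libraries also carried the lymph node stroma markers. Skeletal muscle markers reached a mean log2 level of 8.60 in LFABP-/- iWAT replicate 4 and ranged over 4.26 to 11.4 among the iBAT libraries. They were also at 5.13 in LFABP-/- and 5.57 in WT iWAT replicate 2, against 0.74 to 2.42 in the remaining iWAT libraries. Brown adipocyte markers were at 7.93 in LFABP-/- iWAT replicate 2 and at 2.4 to 4.2 in the other 9. Hepatocyte markers were higher in LFABP-/- iBAT than in WT iBAT for 8 of 8 genes tested, with summed values of 210.8 to 2151.2 and 7.2 to 114.5. In iWAT, epithelial markers had a mean log2 level of 4.0 in WT replicate 1 and 3.2 in LFABP-/- replicate 3. The other iWAT libraries were at -0.727 to 0.373.

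Over the 3 tissues, most of these genes had their highest level in iWAT. The summed mean value of the 35 genes was 1344 in iWAT, 167.58 in iBAT and 127.57 in liver, and 31 of the 35 genes were highest in iWAT, 1 (Adamtsl3) in iBAT and 3 (Adamtsl2, Mmp15 and Adamts13) in liver, on the values as deposited. Most genes leaned the same way: of all 15564 tested, 85.3% were lower in iBAT than in iWAT, and 80.9% were higher in iWAT than in liver. With other scaling some of the 35 genes changed order between tissues, as given below. The plot of all 35 genes by library shows these levels.

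**Figure D1:**
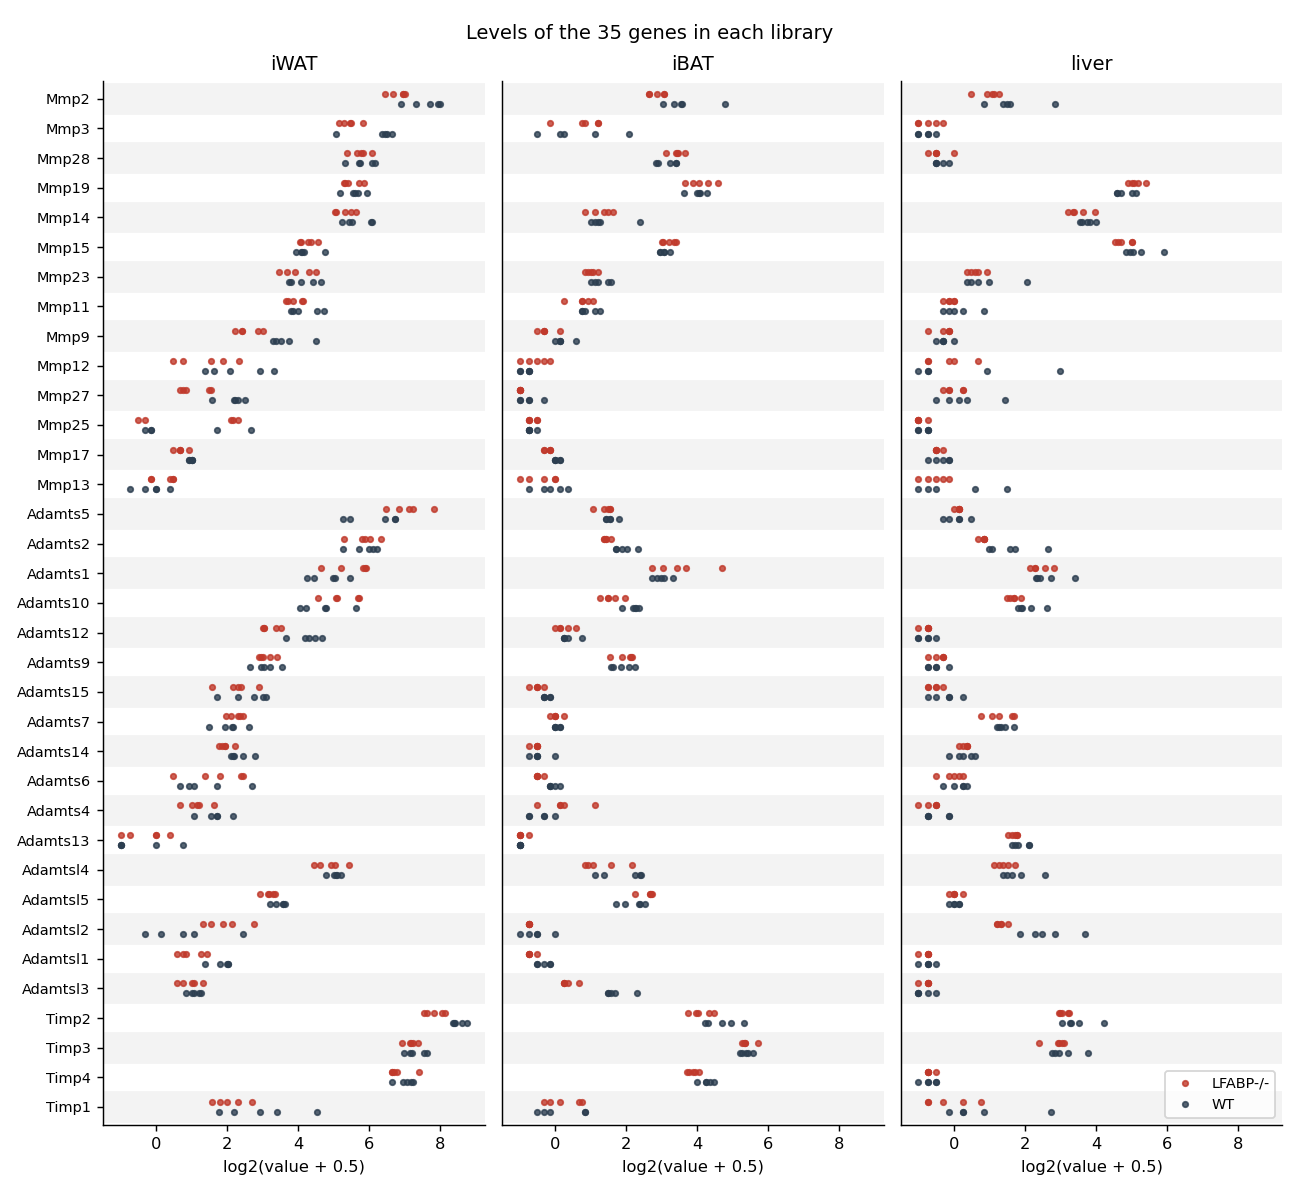
Levels of the 35 genes in every library, as log2(value + 0.5) on the x axis, with a panel for each tissue and a row for each gene. Each point is 1 library, with the 5 LFABP-/- libraries above the 5 WT libraries of the same gene. Timp2 sits furthest to the right in iWAT, with a mean of 298, and Timp4 lies far to the right in iWAT and at the left edge in liver.

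The TIMPs made up 43.2% of the summed value of all 35 genes in iWAT, 48.1% in iBAT and 14.6% in liver. In iWAT, Timp2, which inhibits metalloproteases and also takes part with Mmp14 in the activation of the Mmp2 proenzyme, had the highest mean of the 35 genes at 298, followed by Mmp2 (gelatinase A) at 155, Timp3 (an inhibitor held in the matrix) at 152, Timp4 at 124 and Adamts5 (an aggrecan- and versican-cutting protease) at 109.6. These 5 genes held 62.4% of the summed value. In iBAT the order began with Timp3 at 41.6, Timp2 at 21.8, Timp4 at 16.6, Mmp19 at 16.4 and Mmp2 at 10.1. In liver, in contrast, the membrane-anchored protease Mmp15 (MT2-MMP) led at 32.5, before Mmp19 at 31.2, Mmp14 (MT1-MMP, also membrane-anchored) at 12.1, Timp2 at 9.58 and Timp3 at 7.72. Timp4 was at 0.12 in liver.

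Among the other proteases, the secreted Mmp3 (stromelysin-1) averaged 60.9 in iWAT, 1.34 in iBAT and 0.10 in liver, and Mmp28 (epilysin) averaged 55.1 in iWAT, 9.44 in iBAT and 0.25 in liver. Mmp23 had means of 16.7, 1.74 and 1.32 in iWAT, iBAT and liver, and Mmp11 (stromelysin-3) of 16.4, 1.34 and 0.53. Mmp12 (macrophage elastase) had means of 3.71, 0.13 and 1.12, Mmp25 of 2.25, 0.13 and 0.04, and Mmp17 of 1.29, 0.45 and 0.25 in the same order. Mmp13 (collagenase-3) stayed under 1 in each tissue, at 0.56, 0.36 and 0.46, and was therefore in no test.

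Of the ADAMTS genes, Adamts1, another proteoglycan-cutting protease, averaged 38.2 in iWAT, 9.98 in iBAT and 5.49 in liver, and Adamts9, which also cuts proteoglycans, averaged 8.15, 3.35 and 0.22. Adamts15 had means of 5.15, 0.27 and 0.27, Adamts7 of 4.03, 0.53 and 2.06, Adamts14 (a procollagen N-proteinase) of 4.01, 0.21 and 0.73, and Adamts6 of 2.85, 0.34 and 0.54 in that order of tissues. Adamts13, the protease that cuts von Willebrand factor, went the other way, with 0.36 in iWAT, 0.01 in iBAT and 2.96 in liver. The ADAMTS-like gene Adamtsl4, whose product binds fibrillin microfibrils, averaged 31.2 in iWAT, 2.86 in iBAT and 2.65 in liver.

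These tissue differences were tested with limma on log2(value + 0.5) over all 30 libraries, with the mouse as a block, for the 34 of the 35 genes that averaged at least 1 in at least 1 tissue, with a threshold of 0.1 on the adjusted p. Between iBAT and iWAT, 33 of the 34 were lower in iBAT, against 85.3% of all 15564 genes tested, of which 92.8% differed in either direction. Adamtsl3 was the exception, with a log2 difference of 0.03 (adjusted p = 0.819). The largest differences were those of Adamts5 at -5.14, Mmp3 at -5.13, Adamts2 at -4.17 and Mmp14 at -4.13. Between iWAT and liver, 31 were higher in iWAT, against 80.9% of all genes (94.7% in either direction), led by Timp4 at a log2 difference of 7.63, Mmp3 at 6.58, Adamts5 at 6.53 and Mmp28 at 6.20. Adamts13 (-2.14), Mmp15 (-0.76) and Adamtsl2 (-0.60) were lower in iWAT than in liver. Between iBAT and liver, 19 were higher in iBAT and 9 were lower, against 37.4% and 40.5% of all genes (77.8% in either direction). Timp4 (4.77) and Mmp28 (3.72) stood at the top, and Adamts13 (-2.75), Adamtsl2 (-2.62) and Mmp14 (-2.28) at the bottom. The median over all genes was itself -1.35 between iBAT and iWAT and 1.27 between iWAT and liver, while that of the 34 genes was -2.49 and 2.73. When the values were scaled to the median ratio of all genes, the median of all genes was -0.10 between iBAT and iWAT, 28 of the 34 were lower in iBAT and 3 were higher (Adamtsl3, and with the other sign Mmp15 at 0.31 and Adamtsl5 at 0.45). Without the mitochondrially encoded genes, 31 were lower and Adamtsl3 was higher. Between iWAT and liver the same median-ratio scaling gave 29 higher and 5 lower, with Mmp19 at -0.76 in place of 0.59 and Adamts7 at -0.33 in place of 0.82. Between iBAT and liver, 22 were higher and 7 were lower without the mitochondrially encoded genes.

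In iWAT of LFABP-/- mice, 2 matrix metalloproteases, 1 ADAMTS protease and 1 TIMP were lower than in WT iWAT, and none of the 35 genes was higher. The 4 genes were Adamts12, Timp2, Mmp27 and Mmp9, with folds of 0.48, 0.63, 0.47 and 0.47 on the scale of value + 0.5. In all, 33 of the 35 genes averaged at least 1 over the 10 iWAT libraries and were tested, and the 4 calls compare with 0.77% of all 14668 genes tested that were lower and 0.682% that were higher. At an unadjusted p under 0.05 there were 9 lower and 2 higher. When LFABP-/- replicate 2 or 4 or WT replicate 2, 3 or 5 was left out, none of the 33 genes was called, and without WT replicate 4 there were 6 calls. Without LFABP-/- replicate 5 there were 2 calls. Without the library labelled LFABP-/- replicate 1, whose Fabp1 goes against its label, Adamts12 alone was called, and the differences of Timp2, Mmp27 and Mmp9 were -0.60, -1.01 and -1.20 (adjusted p = 0.136, 0.170 and 0.113). The study named Adamts12, Mmp2, Mmp3, Mmp9 and Timp2 from these same libraries, so their direction here is not independent evidence. In a bulk tissue, fewer cells of a type and less RNA per cell cannot be told apart.

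Adamts12, a protease known to cut cartilage oligomeric matrix protein, had values of 9.9, 7.6, 7.7, 7.7 and 10.9 in the 5 LFABP-/- iWAT libraries and of 17.8, 24.8, 19.4, 12.1 and 21.9 in the WT libraries. The groups did not overlap, with WT replicate 4 the lowest WT library. The mean was 8.76 ± 1.54 in LFABP-/- and 19.2 ± 4.77 in WT iWAT (SD, n = 5 each), a log2 difference of -1.07 ± 0.19 (SE), and limma's adjusted p was 0.0450. Adamts12 lies at chr15:11064790-11349231 on the plus strand of GRCm38. Leaving out LFABP-/- replicate 2 or 4 or WT replicate 2, 3 or 5 brought the adjusted p to between 0.104 and 0.140, with the difference between -0.97 and -1.22 over all 10 such fits.

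Timp2 had values of 187.2, 197.1, 280.4, 227.2 and 263.7 in LFABP-/- iWAT, against 338.6, 393.3, 434.7, 333.5 and 327.0 in WT iWAT. Every LFABP-/- library was below every WT library, as for 4 of the 33 genes (the 4 called) and 1.66% of all genes in iWAT. The means were 231 ± 40.6 and 365 ± 46.9, and the log2 difference was -0.67 ± 0.14 (limma adjusted p = 0.0683). The gene spans chr11:118301069-118355740 on the minus strand. The other TIMPs were not called in iWAT. Timp1, a secreted inhibitor, had values of 6.0, 2.5, 4.4, 3.5 and 3.0 in LFABP-/- libraries and 4.1, 7.1, 22.4, 10 and 2.9 in WT libraries, which overlapped through WT replicates 1 and 5, while WT replicate 3 was far above the others (log2 difference -0.88, adjusted p = 0.587). Timp3 ranged over 121.1 to 166.4 in LFABP-/- libraries (median 143.5) and over 126.1 to 197.3 in WT libraries (median 148.3), with a log2 difference of -0.13 (adjusted p = 0.908). Timp4 ranged over 99.0 to 169.7 and 98.6 to 151.6 in the same groups, with a log2 difference of -0.18 (adjusted p = 0.893). The summed TIMP value was 496 ± 76.3 in LFABP-/- iWAT and 665 ± 45.4 in WT iWAT, and its highest LFABP-/- library (602.8) lay above its lowest WT library (590.4).

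The 2 metalloproteases called were both low in level. Mmp27 (chr9:7571396-7581885, plus strand), a little-studied metalloprotease, had values of 1.1, 1.3, 2.4, 1.2 and 2.3 in LFABP-/- iWAT and 4.4, 4.2, 5.2, 2.5 and 4.1 in WT iWAT. WT replicate 4, the lowest WT library, was 0.1 above the highest LFABP-/- library, which is the last digit to which values were deposited. The log2 difference was -1.10 ± 0.24 (limma adjusted p = 0.0867). Mmp9 (gelatinase B, chr2:164940780-164955850, plus strand) had values of 7.5, 4.2, 6.8, 4.8 and 4.8 in LFABP-/- iWAT, against 9.2, 9.8, 10.9, 12.8 and 22.2 in WT iWAT. The groups did not overlap, and WT replicate 5 stood well above the other WT libraries. The log2 difference was -1.10 ± 0.25 (adjusted p = 0.0939). Timp2, Mmp27 and Mmp9 kept their call in 4, 2 and 1 of the 10 fits with 1 library left out, whose adjusted p reached 0.197, 0.237 and 0.219.

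**Figure D2:**
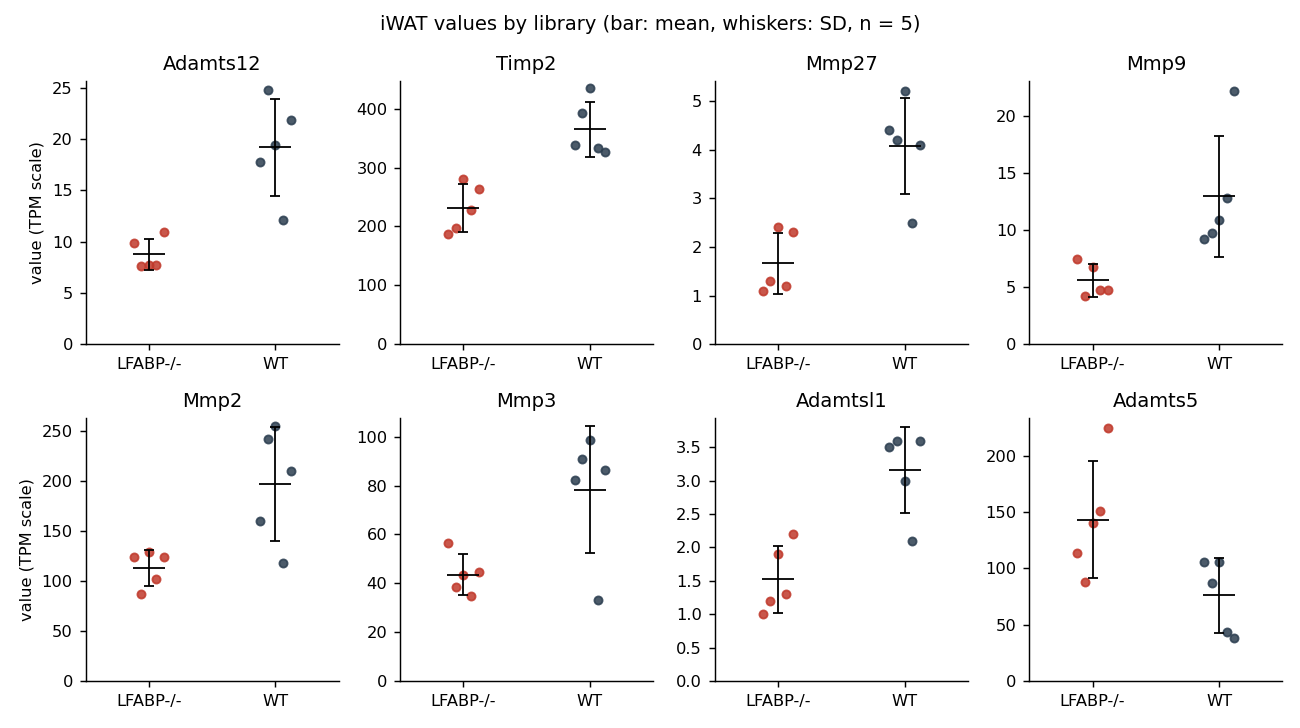
Values on the TPM scale (y axis, from 0) in the 5 LFABP-/- (left, red) and 5 WT (right, dark) iWAT libraries for 8 of the genes. Points are libraries, bars means and whiskers SD. The points of the 2 groups are separate for Adamts12, Timp2, Mmp27 and Mmp9 and overlap for Mmp2, Mmp3, Adamtsl1 and Adamts5.

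Several abundant genes differed in mean without passing the threshold. Mmp2 had values of 124.4, 86.9, 129.1, 102.0 and 123.9 in LFABP-/- iWAT and 159.8, 242.7, 255.1, 118.4 and 210.3 in WT iWAT. WT replicate 4 alone fell within the LFABP-/- range, and the log2 difference was -0.76 ± 0.21 (limma adjusted p = 0.182). Mmp3 showed the same arrangement, with 56.6, 38.3, 43.5, 34.7 and 44.7 in LFABP-/- iWAT against 82.2, 91.0, 98.7, 33.1 and 86.3 in WT iWAT (log2 difference -0.76, adjusted p = 0.330). WT replicate 4 was again apart from the other WT libraries, here below all of the LFABP-/- libraries. It is among the 5 libraries with lymphocyte markers, at the highest mean log2 level of 7.29.

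The aggrecanase Adamts5 had the opposite sign. Its values were 113.2, 87.7, 140.1, 151.0 and 224.4 in LFABP-/- iWAT and 106.0, 87.0, 105.2, 43.6 and 37.7 in WT iWAT. The groups overlapped through LFABP-/- replicate 2, and the log2 difference was 0.97 ± 0.35 (limma adjusted p = 0.315). Adamts10, a protease linked to fibrillin microfibrils, likewise had a mean of 38.6 in LFABP-/- and 27.4 in WT iWAT (log2 difference 0.53, adjusted p = 0.662). Adamts2, the main procollagen N-proteinase, had nearly the same mean in both groups, 59.2 and 59.18. Adamts4 (aggrecanase-1) was at 1.1 to 2.6 in LFABP-/- and 1.6 to 4.0 in WT iWAT (log2 difference -0.51, adjusted p = 0.517).

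Of the ADAMTS-like genes in iWAT, Adamtsl1 had values of 1.0, 1.2, 1.9, 1.3 and 2.2 in LFABP-/- and 3.5, 3.6, 3.0, 2.1 and 3.6 in WT libraries, with WT replicate 4 once more the library that overlapped (log2 difference -0.87 ± 0.22, limma adjusted p = 0.134). Adamtsl2, which in humans carries mutations in geleophysic dysplasia, had values of 2.4, 2.0, 3.2, 6.2 and 3.9 in LFABP-/- and 5.0, 0.6, 1.6, 1.2 and 0.3 in WT libraries. All but WT replicate 1 were below the LFABP-/- libraries, and the log2 difference was 1.10 ± 0.49 (adjusted p = 0.473). Adamtsl5 was at 7.1 to 9.6 in LFABP-/- and 8.7 to 11.8 in WT iWAT (log2 difference -0.29, adjusted p = 0.430).

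By family, 11 of the 13 metalloproteases and 4 of the 4 TIMPs tested in iWAT had a negative difference, against 4 of 11 ADAMTS proteases and 4 of 5 ADAMTS-like genes. The medians were -0.29 for the metalloproteases, -0.42 for the TIMPs, 0.01 for the ADAMTS proteases and -0.14 for the ADAMTS-like genes. Over all 33 genes the median was -0.18, with 23 negative, and over all genes tested it was 0.05, with 39.4% negative. The summed metalloprotease value was 359 ± 37.8 in LFABP-/- iWAT and 512 ± 110 in WT iWAT, and the summed ADAMTS value was 322 ± 83.9 and 239 ± 55.8.

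Markers of other cells differed between these libraries as well. The mean log2 level of 10 macrophage markers was 5.70 to 6.01 in LFABP-/- and 6.13 to 6.80 in WT iWAT (summed values 1499.2 to 2257.3 and 1710.6 to 3547.4), with no marker at 0, and 1 of the 9 tested, Adgre1, was lower. Of the 9 fibroblast and progenitor markers, 1 (Pdgfra) was lower and 9 of 9 had a negative difference (median -0.18), with a mean log2 level of 6.10 to 6.61 in LFABP-/- and 6.46 to 6.89 in WT iWAT and summed values of 1984.2 to 3305.8 and 1931.8 to 3304.4. Their part in the lower Adamts12, Timp2, Mmp27 and Mmp9 was not tested. With the lymphocyte markers as a covariate 7 of the 33 genes were called. With the skeletal muscle markers as a covariate none was, but the log2 differences stayed at -1.07 for Adamts12, -0.67 for Timp2, -1.04 for Mmp27 and -0.94 for Mmp9 (adjusted p = 0.129 to 0.242). In the 5 iWAT libraries without lymphocyte markers, 2 LFABP-/- and 3 WT, no gene of the 33 was called, an alternative chosen after seeing the data, and the log2 difference of Adamts12 was -1.002 (adjusted p = 0.222). Between the 5 libraries with lymphocyte markers and the other 5, Mmp25, a glycolipid-anchored protease known from leukocytes, was at 2.8 to 5.9 and 0.2 to 0.4. Adamts6 was at 2.8 to 6.0 and 0.9 to 2.1. No other of the 33 genes was above in all 5, against 24.5% of all genes. WT replicate 3 held the highest value of the 10 iWAT libraries for 12 of the 33 genes, against 4.19% of all genes tested. Its mean log2 level was 4.11 for neutrophil, 6.80 for macrophage and 5.47 for mast cell markers, and 6.44 for the matrix substrates listed below. Each was the highest of the 10 iWAT libraries, and their part in these values was not tested.

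From the lists of related genes, none of 17 activators, receptors and other inhibitors tested was lower in LFABP-/- iWAT. Of 11 ADAM proteases tested, none was called, and of 18 matrix substrates, 3 were lower. These were Col1a2 (a chain of type I collagen), at 182 ± 42.9 in LFABP-/- and 387 ± 121 in WT iWAT (log2 difference -1.06, limma adjusted p = 0.0792), Postn (periostin), at 30.6 ± 5.41 and 54.8 ± 12.9, and Dcn (decorin), at 222 ± 34.7 and 314 ± 20.9. The study had named Postn and collagen chains from these libraries.

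The chromosomal positions of the genes and the letters at their starts are given here because 4 of the 35 genes, Mmp13, Mmp12, Mmp3 and Mmp27, lie in 1 cluster of 10 metalloprotease genes that spans 427 kb at chr9:7272514-7699585. The coordinates of all 35 genes in the table matched those of GENCODE M21 on GRCm38. A RefSeq promoter of GRCm38.p6 was at hand for 24 of the 35. Searched on both strands over the 250 bases before the start, the AP-1 site (TGAGTCA, or TGACTCA on the other strand) was in 3 of the 24, Mmp12, Mmp13 and Mmp3, and in 4.46% of 32851 promoters. The TATA box (TATAAA, or TTTATA) was in 4, namely Mmp13, Mmp3, Adamtsl2 and Adamts1, and in 12.4% of promoters. The GC box (GGGCGG, or CCGCCC) was in 16 of the 24 and in 32.7% of promoters. The 100 bases before the RefSeq start of the 4 cluster genes and of Adamts12, Adamtsl2 and Adamtsl3, the genes with the lowest adjusted p between genotypes in iWAT, liver and iBAT, are printed 5′ to 3′ on the gene's strand, with these motifs in capitals.
Mmp13 (chr9:7272414-7272513, plus strand): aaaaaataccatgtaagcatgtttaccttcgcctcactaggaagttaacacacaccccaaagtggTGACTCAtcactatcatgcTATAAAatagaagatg
Mmp12 (chr9:7347274-7347373, plus strand): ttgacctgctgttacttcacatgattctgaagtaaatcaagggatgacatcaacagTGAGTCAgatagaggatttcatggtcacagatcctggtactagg
Mmp3 (chr9:7445722-7445821, plus strand): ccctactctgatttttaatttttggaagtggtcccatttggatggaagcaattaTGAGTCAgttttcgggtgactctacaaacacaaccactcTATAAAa
Mmp27 (chr9:7571296-7571395, plus strand): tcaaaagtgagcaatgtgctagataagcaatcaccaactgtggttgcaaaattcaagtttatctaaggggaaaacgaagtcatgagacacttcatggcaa
Adamts12 (chr15:11064673-11064772, plus strand): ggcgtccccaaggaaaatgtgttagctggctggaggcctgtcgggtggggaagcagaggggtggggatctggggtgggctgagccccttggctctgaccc
Adamtsl2 (chr2:27079279-27079378, plus strand): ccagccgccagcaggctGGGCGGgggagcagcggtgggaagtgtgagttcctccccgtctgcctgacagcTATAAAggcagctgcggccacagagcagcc
Adamtsl3 (chr7:82335594-82335693, plus strand): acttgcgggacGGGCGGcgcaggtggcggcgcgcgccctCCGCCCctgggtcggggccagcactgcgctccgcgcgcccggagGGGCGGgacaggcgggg
The AP-1 sites of Mmp13, Mmp12 and Mmp3 began 35, 44 and 46 bases before the starts used here. Mmp12 has another RefSeq start further upstream. Its 100-base window (chr9:7344297-7344396) held none of the 3 motifs and was not printed, as it contains an annotated exon. Mmp27, the cluster gene that was lower in LFABP-/- iWAT, and Adamts12 held none of the 3 motifs in the printed window. Neither a match nor its absence shows whether a factor binds there. In these data Mmp3 and Mmp27 had log2 differences of -0.76 and -1.10 in iWAT, Mmp12 had -0.86 (adjusted p = 0.589), and Mmp13 was not tested.

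In iBAT of LFABP-/- mice, 6 of the 35 genes were lower and 1 was higher than in WT iBAT. Those lower were Adamtsl3, Adamts10, Adamts2, Timp4, Mmp2 and Timp2, and the one higher was Adamtsl5. Only 19 of the 35 genes averaged at least 1 in iBAT and were tested. The share called, 36.8% of the 19, has to be read against 47.8% of all 11614 genes tested. For the directions, 25.5% of all genes were lower and 22.3% were higher.

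The ADAMTS-like gene Adamtsl3 (chr7:82335694-82614450, plus strand), which encodes a matrix protein without protease activity, had the largest fold of the 19. Its values were 0.8, 0.7, 0.7, 0.7 and 1.1 in LFABP-/- iBAT and 2.3, 2.7, 2.3, 2.5 and 4.5 in WT iBAT. Every LFABP-/- library was below every WT library, and replicate 5 was the highest in both groups. The means were 0.80 ± 0.173 and 2.86 ± 0.932, with a log2 difference of -1.34 ± 0.17 (limma adjusted p = 0.000330), and the call held in each of the 10 fits with 1 library left out. Adamtsl5 (chr10:80339110-80348412, minus strand) had values of 4.3, 5.9, 5.9, 6.2 and 6.0 in LFABP-/- iBAT and 2.8, 3.4, 5.3, 4.7 and 4.8 in WT iBAT, which overlapped through LFABP-/- replicate 1. Its log2 difference was 0.41 ± 0.16 (adjusted p = 0.0680), and 4 of the 10 fits with 1 library left out kept the call, with an adjusted p of up to 0.141.

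Of the ADAMTS proteases, Adamts10 (chr17:33524204-33553782, plus strand) had values of 1.9, 2.3, 2.7, 3.4 and 2.3 in LFABP-/- iBAT, against 4.3, 4.4, 4.7, 4.1 and 3.2 in WT iBAT. Only WT replicate 5 fell within the LFABP-/- range, and the log2 difference was -0.63 ± 0.14 (limma adjusted p = 0.00523). Adamts2 (chr11:50602084-50807573, plus strand) had values of 2.1, 2.1, 2.2, 2.5 and 2.2 in LFABP-/- and 2.8, 2.8, 4.6, 3.2 and 3.6 in WT libraries. These did not overlap, and the log2 difference was -0.50 ± 0.12 (adjusted p = 0.00844). Groups that did not overlap, lower in LFABP-/-, were seen for 2 of the 19 genes, Adamts2 and Adamtsl3, and for 14.3% of all genes. Adamts5 was at 2.16 in LFABP-/- and 2.44 in WT iBAT (log2 difference -0.15, adjusted p = 0.326). Adamts4 was too low to be tested within iBAT, with 1.7, 0.6, 0.6, 0.7 and 0.2 in LFABP-/- and 0.3, 0.3, 0.5, 0.1 and 0.1 in WT libraries. Adamts12, also not tested in iBAT, had means of 0.70 and 0.82.

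Among the inhibitors, Timp4 (chr6:115241892-115252205, minus strand) had values of 12.6, 15, 13.3, 16 and 14.3 in LFABP-/- iBAT and 20, 18.6, 18.5, 21.8 and 15.6 in WT iBAT. WT replicate 5 alone was within the LFABP-/- range, and the log2 difference was -0.39 ± 0.09 (limma adjusted p = 0.00849). Timp2 had values of 15.3, 19.7, 15.8, 12.8 and 21.6 in LFABP-/- and 18.1, 19.4, 30.4, 25.8 and 39.5 in WT libraries. The groups overlapped, WT replicate 5 was the highest, and the log2 difference was -0.60 ± 0.22 (adjusted p = 0.0512). Timp3, the most abundant of the 35 genes in iBAT, had values of 37.8, 40.0, 40.5, 52.1 and 39.4 in LFABP-/- and 43.1, 38.0, 36.6, 47.0 and 41.1 in WT libraries, with a log2 difference of 0.02 (adjusted p = 0.869). Timp1 averaged 0.72 and 0.70 and was not tested.

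Of the metalloproteases in iBAT, only Mmp2 (chr8:92827291-92853420, plus strand) was called. It had values of 6.8, 7.9, 5.8, 5.8 and 7.9 in LFABP-/- and 7.7, 9.7, 27.2, 11.5 and 11.1 in WT libraries. WT replicate 3 stood far above the others and WT replicate 1 lay within the LFABP-/- range. The log2 difference was -0.80 ± 0.28 (limma adjusted p = 0.0445), and between -0.51 and -0.95 in the fits with 1 library left out. Mmp19 averaged 17.1 in LFABP-/- and 15.7 in WT iBAT (log2 difference 0.10, adjusted p = 0.692), and Mmp15 averaged 8.78 and 7.84 (0.15, adjusted p = 0.237). Mmp9 averaged 0.34 and 0.66 and was not tested.

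The median log2 difference of the 19 genes in iBAT was -0.15, with 11 negative, against -0.03 over all genes, with 54.4% negative. Of the 9 fibroblast and progenitor markers, 8 were tested and 4 were lower in LFABP-/- iBAT (Dpt, Pdgfrb, Pdgfra and Lum), with summed values of 115.5 to 164.9 in LFABP-/- and 141.9 to 206.2 in WT libraries. Of 6 endothelial markers, 3 were lower (Tek, Tie1 and Emcn), with sums of 96.1 to 159.5 and 126.1 to 175.8. Of 5 mural markers, 3 were lower (Acta2, Rgs5 and Myh11), with sums of 99.4 to 119.3 in LFABP-/- and 124.3 to 153.6 in WT iBAT, which did not overlap. Of 6 adipocyte markers, 3 were lower (Cfd, Adipoq and Retn), while the other 3 had a positive difference and were not called. The sums of all 6 were 1737 to 2458.2 in LFABP-/- and 2824.5 to 3746.6 in WT iBAT, which did not overlap either. No marker of these lists was at 0 in all libraries, and the part of these cells, or of the hepatocyte transcripts noted above, in the differences of the 19 genes was not tested. WT replicate 3 held the highest of the 10 values for 7 of the 19 genes, against 5.5% of all genes tested in iBAT. The mean log2 level of the matrix substrates was 3.86 in this library and 2.87 to 3.24 in the other iBAT libraries. This library came from the same mouse as the iWAT library that was highest for 12 of 33 genes.

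Among the related genes in iBAT, 5 of the 15 activators, receptors and other inhibitors tested were lower in LFABP-/- mice, and Plaur and Plg were among those higher. The genes that were lower included Lrp1, an endocytic receptor that clears metalloproteases and TIMPs from the pericellular space, at 15.6 ± 3.87 in LFABP-/- and 31.96 ± 2.58 in WT iBAT (log2 difference -1.04, limma adjusted p = 0.000590), and the urokinase gene Plau, at 3.40 ± 0.539 and 6.16 ± 1.69. Plg, which encodes plasminogen and is made mainly in hepatocytes, was at 11.8 ± 8.57 and 0.42 ± 0.356, beside the higher hepatocyte markers in the same libraries. Of 7 ADAM proteases, Adam10 and Adam19 were lower, and of 16 matrix substrates Lum and Dcn were lower and Thbs1 was higher.

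In livers of LFABP-/- mice, 2 of the 35 genes were lower than in WT livers, Adamtsl2 and Adamts2, and none was higher. In this tissue 16 of the 35 genes were tested, and 13.9% of all 11629 genes were lower and 3.08% were higher. At an unadjusted p under 0.05 there were 4 lower and 1 higher of the 16. The higher one, Mmp19, was called with median-ratio scaling and without WT replicate 3.

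Adamtsl2 (chr2:27079379-27108981, plus strand), whose product binds fibrillin and the latent TGF-beta binding protein in the matrix, had values of 2.4, 2.0, 1.8, 1.8 and 2.0 in LFABP-/- livers, against 3.1, 6.7, 5.1, 4.4 and 12.5 in WT livers. The groups did not overlap, the LFABP-/- values were close to each other and WT replicate 5 was the highest. The means were 2.00 ± 0.245 and 6.36 ± 3.67, and the log2 difference was -1.32 ± 0.28 (limma adjusted p = 0.0206), between -1.05 and -1.51 in the fits with 1 library left out, all of which kept the call. Adamts2 had values of 1.3, 1.3, 1.1, 1.3 and 1.3 in LFABP-/- livers and 1.5, 2.8, 2.5, 1.6 and 5.8 in WT livers. These were also separate, as they were for 8.63% of all genes. The log2 difference was -0.79 ± 0.27 (adjusted p = 0.0846), and 3 of the 10 fits with 1 library left out kept the call, with an adjusted p of up to 0.182. With values rescaled without the mitochondrially encoded genes, Adamts2 was at -0.76 and not called (limma adjusted p = 0.122).

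The metalloproteases that lead in liver were not called. Mmp15 had values of 31.8, 31.6, 25.7, 23.9 and 22.8 in LFABP-/- and 32.3, 38.4, 30.7, 28.2 and 59.4 in WT livers, with a log2 difference of -0.43 ± 0.19 (limma adjusted p = 0.165). Mmp19 had the opposite sign, with 29.5, 33.0, 42.1, 35.7 and 31.7 in LFABP-/- and 32.1, 23.5, 34.8, 23.8 and 25.7 in WT livers (0.30 ± 0.13, adjusted p = 0.168). Both overlapped between the genotypes, and Mmp19 was the 1 of the 16 genes with a positive difference. Over all genes tested in liver, 67.2% had a negative difference. Mmp14 ranged over 8.8 to 15.1 and 11.2 to 15.6 in the same groups, with a log2 difference of -0.23 (adjusted p = 0.305).

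Mmp2 was at 1.6, 1.4, 1.9, 1.7 and 0.9 in LFABP-/- livers and 1.3, 2.5, 2.3, 2.1 and 6.7 in WT livers (log2 difference -0.65, adjusted p = 0.1998). Adamts10 was at 2.7, 2.3, 2.5, 2.7 and 3.2 in LFABP-/- and 3.0, 4.0, 3.2, 3.3 and 5.7 in WT livers (-0.42, adjusted p = 0.107). In both genes WT replicate 5 was the highest library. The TIMPs gave no call in liver. Timp2 was at 7.4, 7.3, 8.9, 8.8 and 7.8 in LFABP-/- and 7.8, 11, 9.2, 9.4 and 18.2 in WT livers (-0.39, adjusted p = 0.201). Timp3 was at 4.8 to 8.0 and 6.3 to 13.2 (-0.22, adjusted p = 0.482), and Timp1 at 0.1 to 1.2 and 0.4 to 6.2 (-0.95, adjusted p = 0.251).

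WT replicate 5 held the highest of the 10 liver values for 13 of the 16 genes, against 40.1% of all genes tested in liver. In the same library the mean log2 level was 3.17 for the matrix substrates, 3.00 for the fibroblast and progenitor markers and 6.07 for the macrophage markers. The fit without it still called Adamtsl2 and Adamts2, and the median log2 difference of the genes tested was then -0.18, against -0.38 with it. Over all genes the median was -0.10 with it. Of 14 activators, receptors and other inhibitors tested in liver, Tfpi2 was higher and Lrp1 and Bmp1, a protease that removes the C-terminal propeptides of procollagens, were lower. None of 7 ADAM proteases was called, and of 15 matrix substrates Fn1 (fibronectin) was lower, at 224 ± 29.6 in LFABP-/- and 303 ± 52.2 in WT livers.

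**Figure D3:**
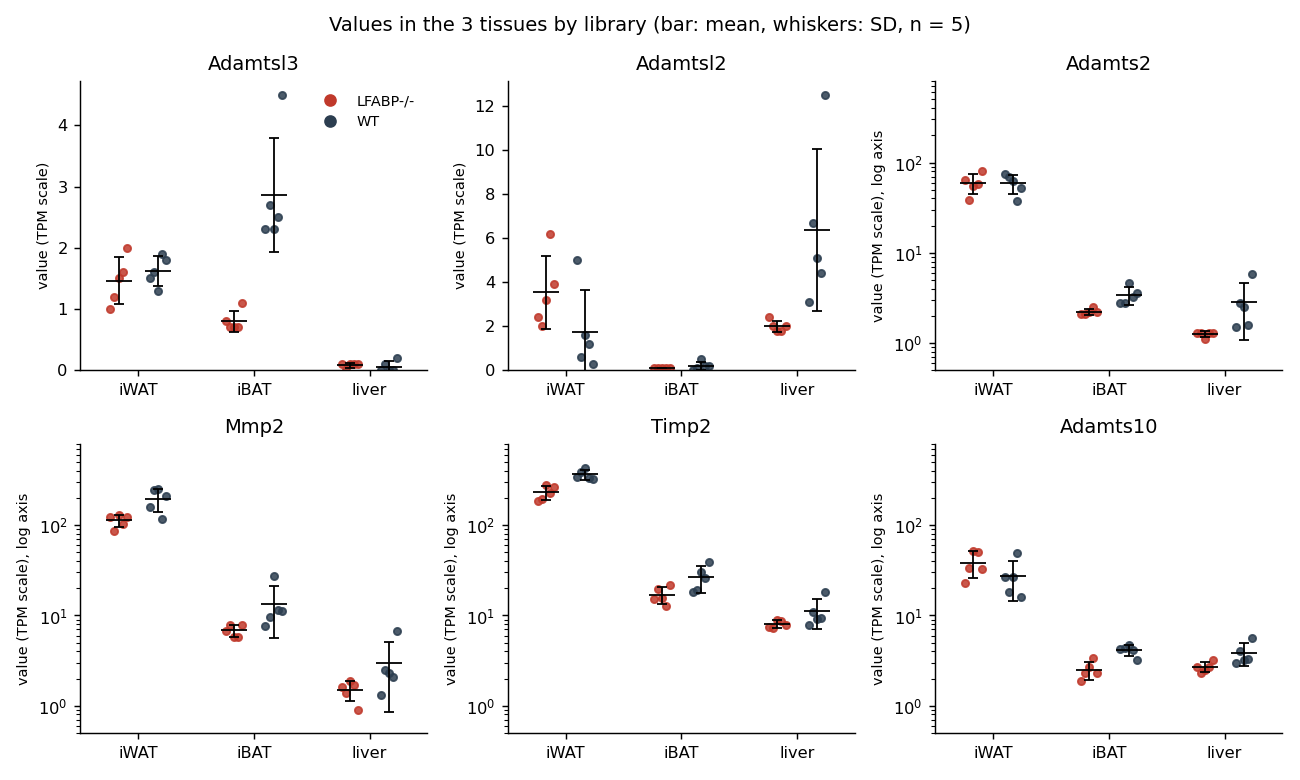
Values on the TPM scale of 6 genes in the 5 LFABP-/- (left of each pair, red) and 5 WT (right, dark) libraries of iWAT, iBAT and liver. Points are libraries, bars means and whiskers SD. The upper left and middle panels start at 0, where the WT iWAT whisker of Adamtsl2 is cut off, and the other 4 panels have a log axis. Adamtsl3 differs between the genotypes in iBAT, where its means are 0.80 and 2.86, and Adamtsl2 in liver, where its means are 2.00 and 6.36.

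A call in 1 tissue and not in another does not show that the genotypes differ by unlike amounts there, so the difference between tissues in the effect of genotype was tested for the 34 genes in the fit of all 30 libraries. Between iBAT and iWAT, 6 of the 34 were called, 17.6% against 11.2% of all genes. Adamtsl3 was lower in LFABP-/- iBAT by more than in iWAT, where its means were 1.46 in LFABP-/- and 1.62 in WT libraries, and the difference of the 2 effects was -1.21 (limma adjusted p = 0.00142). For Adamts10 it was -1.16 (adjusted p = 0.0301), with effects of -0.63 in iBAT and 0.53 in iWAT. For Adamts5 it was -1.12 (adjusted p = 0.0447), with effects of -0.15 and 0.97.

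Adamtsl5 had effects of 0.41 in iBAT and -0.29 in iWAT, a difference of 0.71 (adjusted p = 0.0236). For Adamts12 the difference was 0.93 (adjusted p = 0.0125) and for Adamts4 it was 1.17 (adjusted p = 0.0360), but both genes averaged under 1 in iBAT, where the pseudocount of 0.5 shrinks a difference. With a pseudocount of 0.1 the value for Adamts12 was 0.89 (adjusted p = 0.174) and no longer called. In contrast, Timp2 and Mmp2, with similar effects in both depots, gave differences of 0.07 (adjusted p = 0.911) and -0.04 (adjusted p = 0.974).

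Between iWAT and liver, 4 of the 34 were called, 11.8% against 3.54% of all genes. Adamtsl2 had effects of 1.10 in iWAT and -1.32 in liver, and the difference of 2.42 had an adjusted p of 0.0120. The other 3 were Adamts12 (-1.07, adjusted p = 0.0121), Mmp9 (-1.09, adjusted p = 0.0402) and Adamtsl1 (-0.83, adjusted p = 0.0449), whose means in liver were 0.08 and 0.08, 0.32 and 0.32, and 0.08 and 0.10 in LFABP-/- and WT libraries. At such levels a difference between the genotypes in liver would hardly be detectable. With a pseudocount of 0.1 these 3 were no longer called (adjusted p = 0.135 for Adamts12, 0.171 for Mmp9 and 0.288 for Adamtsl1). In the fit without the mouse of LFABP-/- replicate 1, left out in all tissues, the 6 genes called between iBAT and iWAT kept their calls. Between iWAT and liver, Adamtsl1 (adjusted p = 0.101) was then not called and Adamts10 was. Between iBAT and liver, 1 of the 34 was called, Adamtsl3 at -1.40 (adjusted p = 0.000190), against 15.1% of all genes, with 4.83% lower and 10.3% higher. It was at 0.08 and 0.06 in liver.

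**Figure D4:**
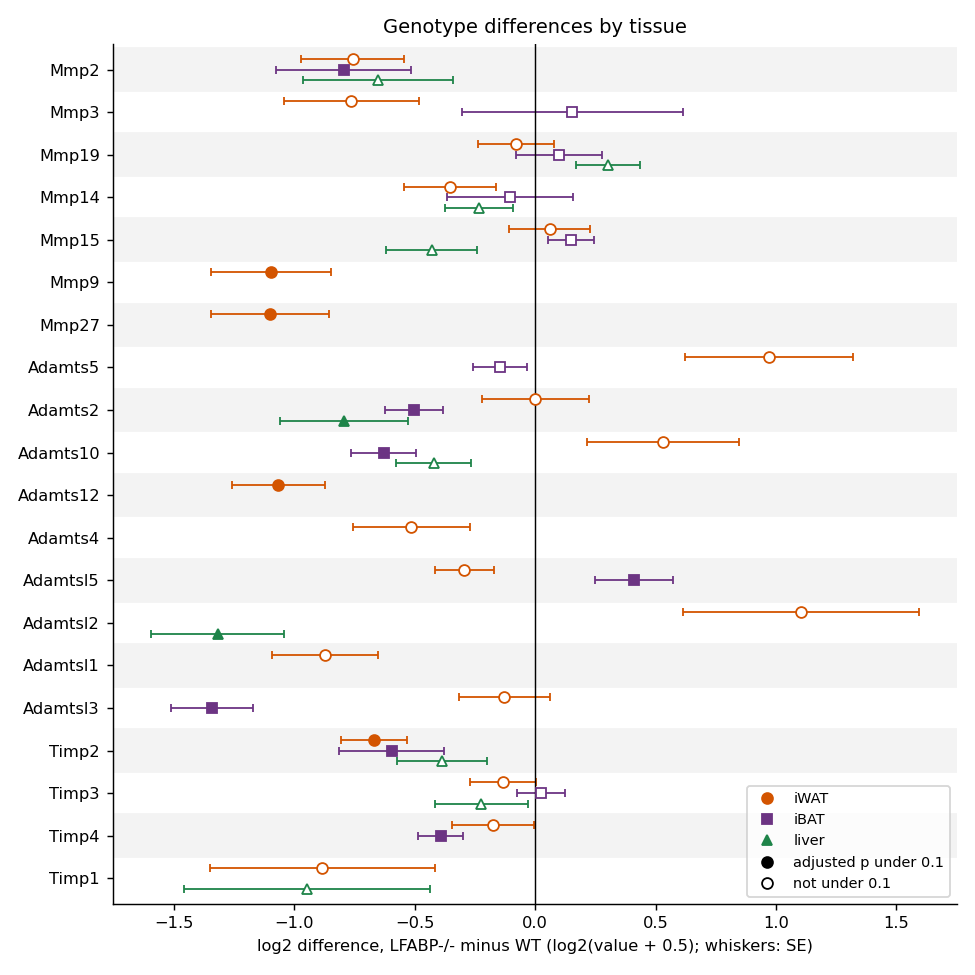
Log2 difference between LFABP-/- and WT libraries (x axis, on log2(value + 0.5), with the SE as whiskers) for 20 of the genes, in iWAT (circles), iBAT (squares) and liver (triangles). Filled symbols had an adjusted p under 0.1, and a symbol is missing where the gene averaged under 1 in that tissue. Filled symbols lie left of 0 except that of Adamtsl5 in iBAT at 0.41, and the symbols of Adamtsl2 lie at 1.10 in iWAT and -1.32 in liver.

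Reads in regions shared with another gene may enter the values, since counting is not stated to use strand. An annotated exon of another gene overlapped exons of 9 of the 35 genes, each on the opposite strand. They included 1733 bases between Timp3 and Syn3, 1381 between Adamts9 and A730049H05Rik, 789 between Mmp19 and Tmem198b, 466 between Mmp28 and 1700020L24Rik, 157 between Mmp12 and Mmp1b, 155 between Mmp11 and Chchd10, 122 between Adamts7 and Tbc1d2b and 90 between Timp4 and Syn2. Of the genes called between the genotypes, only Timp4 was among them.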

How the data were processed

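Poly(A) RNA libraries (NEBNext Ultra, NovaSeq, single-end) were aligned and quantified by the authors in CLC Genomics Workbench 20.0.4 against GRCm38 with Ensembl release 92. The deposited values are headed RPKM, but each column sums to about 1e+06, so they are TPM values, rounded to 1 decimal. Read depth is unknown, which leaves only the spread over libraries as error. Groups came from the labels.

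Within each tissue, LFABP-/- and WT libraries were compared with limma 3.58.1 (R 4.3.3, trend, two-sided) on log2(value + 0.5), for genes with a mean of at least 1 in that tissue. P-values were adjusted by Benjamini-Hochberg over all genes, and calls were made at an adjusted p under 0.1, the rate the authors used. The pseudocount understates changes of low genes. For tissues and interactions, 1 model took in the 30 libraries, and libraries of a mouse were treated as correlated (duplicateCorrelation, statmod 1.5.0), for genes with a mean of at least 1 in at least 1 tissue. The fits were tested on simulated data. Alternatives varied the pseudocount, filter, scaling, weights, covariates, threshold, block and libraries.

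Genes given with values by library were those called between genotypes or in an interaction, those the study names for iWAT, the 4 TIMPs, and in each tissue the 3 with the smallest p and the 5 with the highest mean. Members and lists were chosen with earlier results of these data known. No 2 of 60 library pairs were copies (lowest SD of log2 differences 0.319). Promoter sequences are from RefSeq (GRCm38.p6), and windows with an annotated exon were not printed. Expression columns of all 30 libraries were used, and the labels name each library's mouse. Results that need certain other genes are not reported here.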

Additional observations from a re-analysis of the deposited data

Results flagged for a closer look

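In 17 of the 86 groups of 5 libraries checked (each named gene in each tissue and genotype), 1 library stood apart from the other 4 by Dixon's criterion at the 95% level. That level means about 1 in 20 only for independent groups of normally distributed values. These groups share libraries and hold values rounded to 1 decimal, so the 17 cannot be set against that rate. WT iBAT replicate 3 stood apart in 3 genes, and WT liver replicate 5, WT iWAT replicate 1, LFABP-/- iBAT replicate 4 and others in 2 or 1. In WT iBAT replicate 3, Mmp2 was at 27.2 (others 7.7 to 11.5), Mmp14 at 4.8 (1.5 to 1.9) and Adamts5 at 3.0 (2.2 to 2.4). In WT liver replicate 5, Mmp2 was at 6.7 (others 1.3 to 2.5) and Timp1 at 6.2 (0.4 to 1.3). In iWAT, WT replicate 1 had Adamtsl2 at 5.0 (others 0.3 to 1.6) and Mmp15 at 26.5 (14.7 to 17.3), WT replicate 4 had Mmp3 at 33.1 (82.2 to 98.7), WT replicate 5 had Mmp9 at 22.2 (9.2 to 12.8), and LFABP-/- replicate 5 had Timp4 at 169.7 (99.0 to 109.8). In LFABP-/- iBAT, replicate 4 had Adamts2 at 2.5 (others 2.1 to 2.2) and Timp3 at 52.1 (37.8 to 40.5), replicate 1 had Adamtsl5 at 4.3 (5.9 to 6.2), and replicate 5 had Adamtsl3 at 1.1 (0.7 to 0.8). WT iBAT replicate 5 had Adamtsl3 at 4.5 (2.3 to 2.7). In LFABP-/- liver, replicate 3 had Adamts2 at 1.1 (1.3 in each of the others), a gap of a few last digits, and replicate 1 had Timp3 at 4.8 (7.2 to 8.0).

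The effect of genotype differed between tissues by a test of the difference itself for 11 values. Between iBAT and iWAT these were Adamtsl3 at -1.21, Adamts10 at -1.16, Adamts5 at -1.12, Adamtsl5 at 0.71, Adamts12 at 0.93 and Adamts4 at 1.17. Between iWAT and liver they were Adamtsl2 at 2.42, Mmp9 at -1.09, Adamts12 at -1.07 and Adamtsl1 at -0.83, and between iBAT and liver Adamtsl3 at -1.40. For these contrasts, 10 further fits each left out 1 mouse with its libraries of all tissues. The limma call was kept in all 10 for Adamtsl3 in both contrasts, for Adamtsl2 and for Adamts12 in both contrasts. It was kept in 9 for Adamts10, Adamts4 and Adamtsl5, in 8 for Adamts5, in 7 for Adamtsl1 and in 6 for Mmp9. Of these, Adamts12 averaged under 1 in iBAT, and Adamts12, Mmp9, Adamtsl1 and Adamtsl3 under 1 in liver. There the pseudocount of 0.5 holds the genotype difference near 0, so these values say little beyond the effect in the other tissue. Adamts4 also averaged under 1 in iBAT, but with means of 0.76 in LFABP-/- and 0.26 in WT libraries. Its effect in iWAT was -0.51, so its value of 1.17 draws on both depots. With a pseudocount of 0.1, Adamts12 in both contrasts, Mmp9 and Adamtsl1 were not called.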

How the results depend on the processing

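The count of the 35 genes called between LFABP-/- and WT iWAT, 4 as reported, was the least stable. It was 1 with no filter on low values, 1 with median-ratio scaling, 1 at an adjusted p under 0.05, 20 with library weights, 7 in 1 fit of all 30 libraries, 7 with the lymphocyte covariate, 0 with the skeletal muscle covariate, 0 in the 5 libraries without lymph node (chosen after seeing the data), and 0 to 6 with 1 library left out. Over all genes it was 213 as reported, 51 to 318 with 1 library left out and 6 to 9158 otherwise, the last with library weights. In iBAT the count of 7 became 12 with no filter, 3 with a minimum mean of 5, which tests fewer genes, 11 with library weights and 5 to 9 with 1 library left out. In liver the count of 2 became 1 with no filter, 0 with a minimum mean of 5, 1 without the mitochondrial genes, 1 at an adjusted p under 0.05 and 1 to 3 with 1 library left out. It was 1 without any of the LFABP-/- libraries or WT replicate 2. Of the tissue contrasts, with a minimum mean of 5, iWAT minus liver called 22 (34 as reported) and iBAT minus liver 18 (28). For the genotype effects, iWAT minus liver (4) gave 1 with a pseudocount of 0.1, 2 with a minimum mean of 5 and 2 to 6 with 1 mouse left out in all tissues. The count for iBAT minus liver (1) was 2 with a pseudocount of 0.1, 0 with a minimum mean of 5 and 2 with median-ratio scaling. It was 2 without the mitochondrial genes and 1 to 2 with 1 mouse left out. With median-ratio scaling, and without WT replicate 3, Mmp19 was called higher in liver. The cause of these shifts was not tested unless stated.

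Of all calls in liver, 18.2% were higher as reported, 58.1% with median-ratio scaling and 37.5% without the mitochondrial genes, where the median of all genes was 0.00 and -0.04. Between iBAT and iWAT, 8.08% of calls over all genes were higher as reported, 44.4% with median-ratio scaling and 23.2% without the mitochondrial genes. Between iWAT and liver these were 85.4% and 53.2% (median-ratio scaling), and between iBAT and liver 48.0% and 78.0% (without the mitochondrial genes). For the genotype effect they were 44.7% and 60.7% (iBAT minus iWAT, median-ratio scaling), 71.1%, 46.9% and 57.8% (iWAT minus liver, as reported, median-ratio scaling and without the mitochondrial genes) and 68.0% and 45.3% (iBAT minus liver, without the mitochondrial genes).

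Of 1205 alternative values of single genes in the genotype comparisons, 25 had the other sign, none of them a gene called in that comparison. In iWAT, Adamts2 (0.00 as reported) was at -0.038 with median-ratio scaling, -0.00714 without the mitochondrial genes, -0.14 with library weights, -0.00379 with the skeletal muscle covariate and -0.15 to 0.14 with 1 library left out, Mmp19 at 0.17 in the 5 libraries without lymph node and -0.18 to 0.0098 with 1 left out, and Mmp15 at -0.0161 to 0.20 with 1 left out. In iBAT, Timp3 was at -0.0287 without the mitochondrial genes, -0.00957 with the name prefix as a term, -0.0129 with the skeletal muscle covariate (chosen after seeing the data) and -0.0562 to 0.0722 with 1 library left out. Under that covariate Mmp19 was at -0.0556 and Mmp3 at -0.0323, and with 1 library left out Mmp19 was at -0.025 to 0.21, Mmp3 at -0.13 to 0.52 and Mmp14 at -0.21 to 0.15.

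LFABP-/- and WT libraries with the same number came from different mice, and their deviations correlated at -0.334 to 0.669 in iWAT, -0.53 to 0.511 in iBAT and -0.061 to 0.127 in liver. In iWAT 4 of the 5 pairs were at 0.501 or above, but not all were positive in any tissue, and the numbers were not taken to pair the mice. With the replicate block, 3 genes were called in iWAT (Mmp9, adjusted p = 0.135, was not), 8 in iBAT and 1 in liver (Adamts2, adjusted p = 0.107, was not). Without the block by mouse, the tissue contrasts called 33, 34 and 28 genes and the genotype effects 6, 4 and 1. Differences of genes at a value near 0.5 or less, such as most in liver, are limited by the 1 decimal of the values and the unknown depth.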

Other observations

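The genes whose genotype values are not given above were not called in any tissue by limma. In iWAT, Adamts1 had values of 36.1, 24.5, 58.9, 59.1 and 56.8 in LFABP-/- libraries and 43.3, 32.3, 30.9, 18.6 and 21.5 in WT libraries, which overlapped (log2 difference 0.66, adjusted p = 0.484). Adamts14, which the study had named from these libraries, averaged 3.36 ± 0.498 in LFABP-/- and 4.66 ± 1.08 in WT iWAT (SD, log2 difference -0.40, adjusted p = 0.422). Mmp12, a protease of macrophages, averaged 2.44 ± 1.48 and 4.98 ± 3.15, with WT replicates 3 and 4 the highest at 9.4 and 7.1. Mmp28 (53.6 and 56.6), Adamtsl4 (30.1 and 32.3) and Adamts9 (8.14 and 8.16) had close means in LFABP-/- and WT iWAT. In iBAT, Adamts1 averaged 12.4 ± 7.62 in LFABP-/- and 7.58 ± 1.3 in WT libraries, with LFABP-/- replicate 4 at 25.3 (log2 difference 0.52, adjusted p = 0.218). In liver, Mmp12 was at 7.4 in WT replicate 5 and at 0.0 to 1.4 in the other WT livers.

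Of the 16 genes left out for low values, Mmp7, which epithelia make, had its highest mean in liver at 0.45, and Adamts3, a procollagen N-proteinase, had 0.24 in iWAT and 0.26 in iBAT. Mmp8, the collagenase of neutrophils, averaged 0.22 in iWAT. Mmp1a, Mmp1b and Adamts19 were listed at 0 in each of the 3 tissues.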
